A study of Mus musculus with 6 samples.

Results

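The genes described here encode the subunits of the RNA polymerases of the nucleus, together with the basal factors of RNA polymerase I and the mitochondrial RNA polymerase. They were chosen by symbol, with earlier results of these data known. The rule took all symbols that begin with Polr1, Polr2 or Polr3 plus Cd3eap, Znrd1, Twistnb, Taf1a to Taf1d, Rrn3, Ubtf and Polrmt. These came to 38 of the 22048 genes in the deposited table. All 38 passed the filter on low counts, which kept 13952 genes. By enzyme, 6 genes encode subunits found in RNA polymerase I (Pol I) only, 7 in Pol II only and 10 in Pol III only, 2 are shared by Pol I and Pol III, and 5 are shared by all 3 enzymes. The other members were 6 initiation factors of Pol I, Polr2m, which binds Pol II, and Polrmt.

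Neural stem/progenitor cells (NSC/NPCs) were taken from the hypothalami of male C57BL/6 fetuses at E14.5 and grown as neurospheres with EGF and bFGF, and the first passage was sequenced. Dams aged 8 weeks were gavaged from E5.5 to E11.5 with estradiol valerate at 100 μg/kg/d (high estradiol, HE) or with the corn oil solvent alone (control, NC, called untreated in the sample labels). Each group had 3 samples, and each sample held cells of 2 mice. Nothing states whether the samples of a group came from separate litters, so that p-values measure the spread between these samples. A neurosphere is a culture selected by its growth factors and not the tissue itself, and in such bulk RNA a change in the share of a cell type and a change in RNA per cell cannot be told apart.

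Pol I transcribes the repeated ribosomal RNA genes in the nucleolus, Pol II makes messenger RNA and many small nuclear RNAs, and Pol III makes transfer RNAs, the small ribosomal RNA and other short RNAs. The enzymes share a common core: each has its own pair of large catalytic subunits, a set of small subunits is built into all of them, and each carries its own stalk and peripheral subunits. Output of Pol I and Pol III rises with growth and proliferation in many cell types, and the factors Rrn3 and Maf1 are known to carry growth signals to Pol I and Pol III.

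Each gene of the deposited table with a match among the RefSeq promoters (build GRCm38.p6, 250 bases before to 50 bases after the start) could be read for sequence, and 32 of the 38 members had an entry (the first listed where a gene had several). Among these, 13 (40.6%) held the ETS-factor letters CCGGAAG on either strand, against 9.12% of all 27025 promoters and 17.2% of the 10865 that belong to tested genes. The NRF1 letters CGCATGCG were in 3 (9.38%), against 3.75% of tested genes, and the E-box CACGTG in 6 (18.8%), against 9.90%. For CCAAT the counts were 10 members (31.3%) against 38.2% of tested genes, for TATAAA 3 (9.38%) against 6.65%, and for GGGCGG, the letters of SP1 sites, 17 (53.1%) against 64.8%. The members' promoters had a median GC content of 59.2%, against 52.7% for all promoters, and a median ratio of observed to expected CpG of 0.849, against 0.389. Neither was computed for the promoters of tested genes alone, so these values do not set the members apart from other expressed genes. For GGGCGG the share was 35.9% of all promoters and 64.8% of those of tested genes. The 5 promoters shown, 5′ to 3′, are: in Pol I, the Pol I factors, Pol II and Pol III, the member with the smallest p whose window held CCGGAAG, and Polr3gl, the member with the lowest log2 fold change, whose window did not hold it. Capitals mark matches to the letters named above, SP1 aside, on either strand, so that the ETS letters may read CTTCCGG.
Polr1e, chr4:45018359-45018658, plus strand: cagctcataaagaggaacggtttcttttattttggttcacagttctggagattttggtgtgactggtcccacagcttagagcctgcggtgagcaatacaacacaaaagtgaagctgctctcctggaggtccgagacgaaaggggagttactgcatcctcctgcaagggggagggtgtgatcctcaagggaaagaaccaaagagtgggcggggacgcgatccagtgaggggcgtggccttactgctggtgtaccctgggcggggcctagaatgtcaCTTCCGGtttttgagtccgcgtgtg
Rrn3, chr16:13780449-13780748, plus strand: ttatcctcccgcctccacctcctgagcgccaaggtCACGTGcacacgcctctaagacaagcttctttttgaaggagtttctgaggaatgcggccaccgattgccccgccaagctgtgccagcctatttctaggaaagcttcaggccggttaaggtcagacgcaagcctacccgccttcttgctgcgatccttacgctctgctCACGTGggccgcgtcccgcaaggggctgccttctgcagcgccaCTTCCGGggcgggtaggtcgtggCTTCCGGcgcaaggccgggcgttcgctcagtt
Polr2j, chr5:136116441-136116740, plus strand: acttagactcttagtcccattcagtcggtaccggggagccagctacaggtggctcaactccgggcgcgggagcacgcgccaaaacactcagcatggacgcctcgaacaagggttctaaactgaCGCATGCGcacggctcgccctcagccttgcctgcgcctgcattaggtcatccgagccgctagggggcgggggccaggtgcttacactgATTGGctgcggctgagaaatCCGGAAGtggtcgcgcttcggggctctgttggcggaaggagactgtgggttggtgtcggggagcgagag
Polr3b, chr10:84622048-84622347, plus strand: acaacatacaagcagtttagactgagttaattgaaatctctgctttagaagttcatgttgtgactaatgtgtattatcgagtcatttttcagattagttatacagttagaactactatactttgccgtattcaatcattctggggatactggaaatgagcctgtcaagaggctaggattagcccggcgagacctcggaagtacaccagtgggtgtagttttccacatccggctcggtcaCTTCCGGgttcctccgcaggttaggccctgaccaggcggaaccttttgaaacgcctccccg
Polr3gl, chr3:96594132-96594431, minus strand: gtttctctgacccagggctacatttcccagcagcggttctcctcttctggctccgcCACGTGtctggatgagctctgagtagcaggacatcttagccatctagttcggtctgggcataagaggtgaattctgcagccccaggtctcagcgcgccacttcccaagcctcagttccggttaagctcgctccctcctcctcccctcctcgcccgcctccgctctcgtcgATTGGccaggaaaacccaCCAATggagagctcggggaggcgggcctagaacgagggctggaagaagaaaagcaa
A match is a run of letters and not a shown binding site. The 13 members with CCGGAAG had a median log2 fold change (HE over NC) of 0.22, and the 19 without it one of 0.22 as well.

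The library labelled HE3 stood apart. It had 16078675 reads on genes, the others 17904879 to 19137059, and it differed from HE1 and HE2 by a chi-square per degree of freedom of 85.0 and 80.4 over genes, while HE1 and HE2 differed by 15.6 and the NC pairs by 21.4 to 45.4. Over all tested genes its median deviation from the NC mean was -0.17 on the log2 scale, and those of HE1 and HE2 were 0.00035 and -0.0012. For single members and genes named from lists, values without HE3 are therefore given where it moved the log2 fold change by more than 1.5 times, and the plot of fold changes shows them for each gene plotted. The progenitor marker Sox2 was at 209, 209 and 195 RPKM in NC1 to NC3 and at 176, 172 and 97.3 RPKM in HE1 to HE3, and Nes was at 198, 158 and 204 RPKM in NC and 154, 161 and 247 RPKM in HE, so that both defining markers were present in all samples.

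In the control neurospheres the members spanned a wide range of levels per length. Polr2f, a small subunit of all 3 enzymes, was the most abundant at 138 RPKM (mean of NC), and Polr3g, one of a pair of alternative Pol III subunits, the least at 1.69 RPKM. Within Pol II the lowest member was Polr2a, which encodes the largest catalytic subunit with its repeated C-terminal tail, at 4.47 RPKM, 31.0-fold below Polr2f. Within Pol I it was Twistnb, the stalk subunit that contacts Rrn3, at 2.12 RPKM, 65.3-fold below Polr2f. Within Pol III it was Polr3g, 82.0-fold below Polr2f. The median NC level was 35.5 RPKM over the 12 Pol II subunits, 17.8 RPKM over the 13 Pol I subunits and 10.4 RPKM over the 17 Pol III subunits, the shared ones counted in each. Reads behind the lowest members were few: between 79 and 107 per sample for Twistnb, 81 and 127 for Polr2k, and 93 and 158 for Polr3g.

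**Figure D1:**
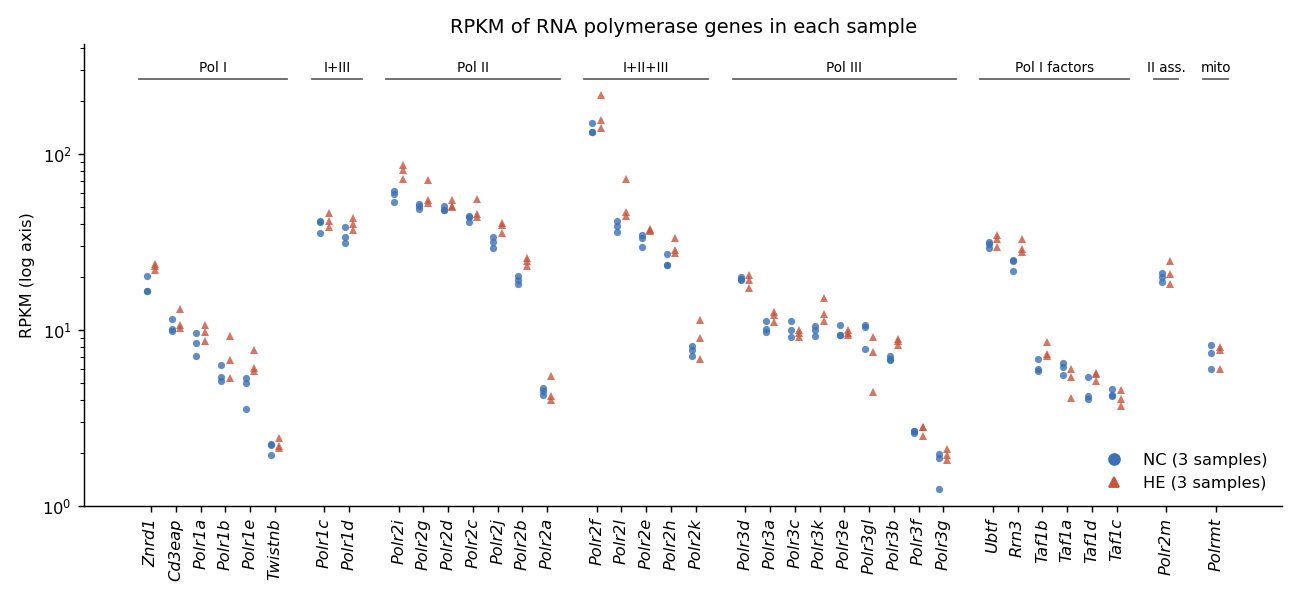
RPKM (log axis) of 37 of the 38 genes in the 3 NC samples (circles) and the 3 HE samples (triangles), grouped by the enzyme that holds the subunit and ordered by the NC mean. Subunits of one enzyme differ far more from each other than HE differs from NC: Polr2f averaged 138 RPKM in NC and Polr2a 4.47.

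Of the 38 members, 31 (81.6%) had a higher mean log2 value in HE and 7 a lower one, and of all tested genes 43.8% were higher. None passed an adjusted p of 0.05 in limma on log2(RPKM + 0.1), where the smallest adjusted p among members was 0.195, and limma voom on the read counts also called 0 genes of the whole table. Of all tested genes, 0% passed in the first fit. At an unadjusted limma p under 0.05, 8 members were higher (21.1%, against 8.68% of all tested genes) and 0 lower (against 11.8%). The HE values all exceeded the NC values for 13 members (34.2%, against 14.8% of all tested genes) and were all below them for 0 (against 17.9%). The median log2 fold change was 0.21 over the members and -0.06 over all tested genes. Without HE3, 8 members were higher at an unadjusted p under 0.05 (against 9.35% of all tested genes), 6 of them among the 8 above. The medians were then 0.11 and -0.0002. Without NC2, 3 members were higher at an unadjusted p under 0.05, without NC1 4 and without NC3 5, while the share of all tested genes was 4.78%, 4.39% and 6.75%. Under median-of-ratios scaling the median of all tested genes moved to -0.0025 and that of the members to 0.27, with 34 of 38 higher.

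**Figure D2:**
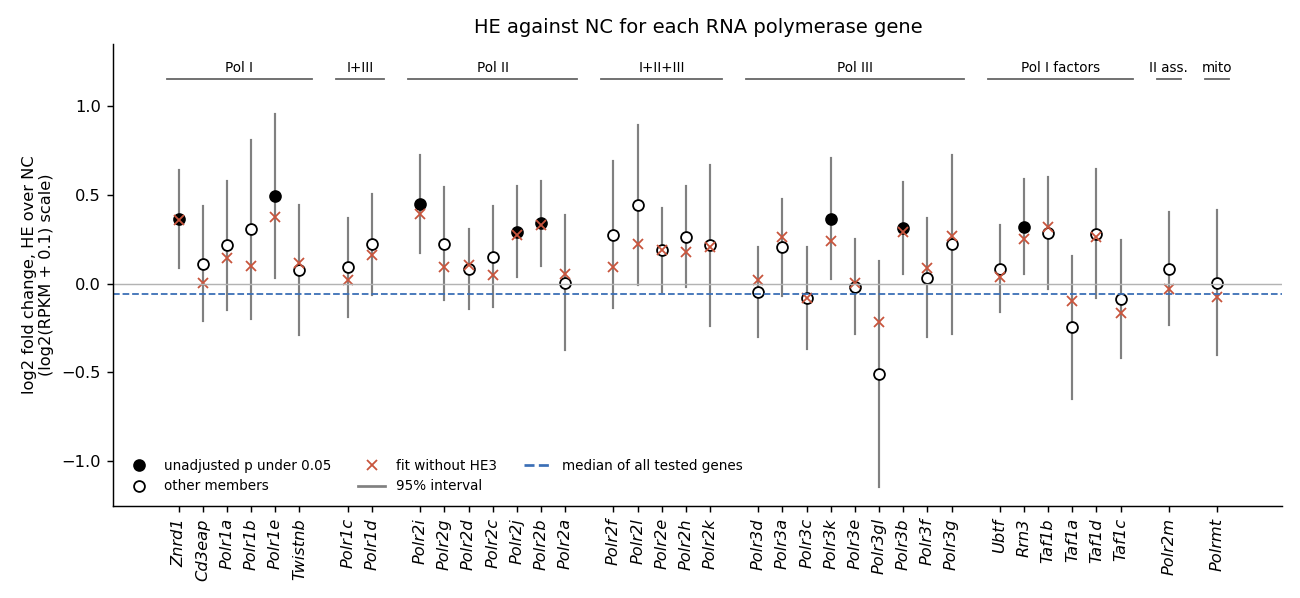
Log2 fold change of 37 of the 38 genes (HE over NC, circles, filled where the unadjusted limma p is under 0.05), with its 95% interval (lines), and the same fold change without HE3 (crosses); the dashed line is the median of all tested genes. Of the 37 circles 31 lie above 0, and the 9 plotted genes of Pol III alone lie on both sides of it.

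The subunits of Pol II showed the members with the smallest p. Polr2i, a small subunit at the edge of the enzyme's cleft, was at 59.2, 53.1 and 61.6 RPKM in NC1 to NC3 and at 80.5, 71.5 and 85.9 RPKM in HE1 to HE3. All HE samples lay above all NC samples, and the log2 fold change was 0.45 ± 0.12 (SE over 3 samples per group; limma, unadjusted p = 0.0061, adjusted p = 0.195), or 0.39 without HE3. The annotated Polr2i shares 124 bases with Tbcb on the other strand, which was at 76.9 RPKM in NC and had a log2 fold change of 0.36, and whether reads were assigned by strand is not given in the sources used here. Polr2b, the second largest catalytic subunit, stood at 19.2, 18.1 and 20.2 RPKM in NC and 25.4, 22.9 and 24.6 RPKM in HE. Again the groups did not overlap (0.34 ± 0.10, unadjusted p = 0.012, adjusted p = 0.195), and the difference was 0.33 without HE3. The annotated Polr2b shares 89 bases with Igfbp7 on the other strand, which was at 5.29 RPKM in NC and had a log2 fold change of 0.44. Polr2j, a partner in the assembly of the enzyme's core, had 31.4, 28.9 and 33.5 RPKM in NC and 40.1, 35.4 and 39.4 RPKM in HE. This was a log2 fold change of 0.29 ± 0.11 (unadjusted p = 0.030, adjusted p = 0.217), with no overlap between groups.

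Polr2a behaved otherwise. It was at 4.23, 4.69 and 4.48 RPKM in NC1 to NC3 and at 3.97, 5.42 and 4.17 RPKM in HE1 to HE3, with HE2 the highest and HE1 the lowest of the 6 samples. Its log2 fold change was 0.005 with a 95% interval from -0.37 to 0.38, and 0.06 without HE3. The ratio of Polr2b to Polr2a was 4.55, 3.87 and 4.50 in NC and 6.40, 4.22 and 5.90 in HE, which overlapped (exact permutation test, two-sided p = 0.3, adjusted p = 0.7 over the 7 subunit ratios computed, where 3 against 3 samples cannot go below 0.1). The stalk subunits Polr2g and Polr2d had log2 fold changes of 0.23 and 0.08 (0.09 and 0.10 without HE3), and Polr2c, the assembly partner of Polr2j, one of 0.15 (0.05 without HE3). For Polr2g the 3 HE values, 54.4, 52.7 and 70.8 RPKM, lay above the 3 NC values, 48.7, 50.4 and 51.6 RPKM, by a narrow margin apart from HE3. In all, 7 of 7 subunits of Pol II alone were higher in HE (against 43.8% of all tested genes). Of these, 3 (42.9%, against 8.68%) had an unadjusted p under 0.05 and 4 (57.1%, against 14.8%) were without overlap. Their median was 0.23, or 0.10 without HE3.

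Among subunits of Pol I alone, 6 of 6 were higher in HE (against 43.8% of all tested genes). Of these, 2 (33.3%, against 8.68%) had an unadjusted p under 0.05 and 2 (33.3%, against 14.8%) were without overlap. The median log2 fold change was 0.26, or 0.13 without HE3. Znrd1, the small subunit with a zinc ribbon that takes part in RNA cleavage, was at 20.2, 16.6 and 16.6 RPKM in NC and 23.7, 22.0 and 23.1 RPKM in HE. The HE samples were close to each other and above all NC samples (0.37 ± 0.12, unadjusted p = 0.016, adjusted p = 0.196), and the difference was 0.36 without HE3. Polr1e, which forms a heterodimer with Cd3eap on the enzyme's surface, was at 4.99, 3.55 and 5.32 RPKM in NC and 5.80, 6.07 and 7.63 RPKM in HE. The groups did not overlap (0.49 ± 0.20, unadjusted p = 0.040, adjusted p = 0.229), the low value of NC2 and the high value of HE3 stood out, and without HE3 the difference was 0.37 with an unadjusted limma p of 0.088. Cd3eap itself had 10.0, 11.4 and 9.85 RPKM in NC and 10.2, 10.7 and 13.1 RPKM in HE, with overlap and a log2 fold change of 0.11, which was 0.004 when HE3 was left out. Its annotation shares 518 bases with Ercc1 on the other strand.

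The catalytic pair of Pol I varied more between samples. Polr1a, the largest subunit, was at 9.62, 7.05 and 8.38 RPKM in NC and 8.63, 9.75 and 10.6 RPKM in HE (0.22 ± 0.15, unadjusted p = 0.204). Polr1b, the second largest, was at 6.31, 5.11 and 5.35 RPKM in NC and 5.31, 6.71 and 9.24 RPKM in HE (0.31 ± 0.21, unadjusted p = 0.196), and its difference was 0.10 without HE3. Groups overlapped for both genes. Twistnb, with 1.93, 2.23 and 2.20 RPKM in NC and 2.19, 2.41 and 2.11 RPKM in HE, had a log2 fold change of 0.08, or 0.11 without HE3.

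Of the factors that bring Pol I to its promoter, Rrn3, which binds the enzyme and makes it competent to initiate, was at 24.9, 21.7 and 24.5 RPKM in NC and 27.5, 28.8 and 32.6 RPKM in HE. All HE values lay above all NC values (0.32 ± 0.11, unadjusted p = 0.026, adjusted p = 0.21), and the difference was 0.25 without HE3. Ubtf, which coats the ribosomal DNA, was at 31.3, 30.5 and 29.1 RPKM in NC and 29.4, 32.8 and 34.4 RPKM in HE, with overlap and a log2 fold change of 0.08, which was 0.04 when HE3 was left out. The subunits of the selectivity factor did not move as a unit: Taf1b and Taf1d were at 0.29 and 0.28, Taf1c and Taf1a at -0.09 and -0.25 (-0.16 and -0.10 without HE3), and only Taf1b had groups that did not overlap. Its values were 5.96, 6.81 and 5.86 RPKM in NC and 8.49, 7.09 and 7.24 RPKM in HE (unadjusted p = 0.069).

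The 5 subunits built into all 3 enzymes were each higher in HE (against 43.8% of all tested genes). Their median log2 fold change was 0.27, or 0.19 without HE3. None had an unadjusted p under 0.05 (against 8.68% higher), and 3 (60%, against 14.8%) were without overlap. Polr2l was at 36.1, 38.8 and 41.6 RPKM in NC and 46.6, 43.9 and 71.5 RPKM in HE. HE3 was far above the other HE samples, so that the log2 fold change of 0.44 ± 0.19 (unadjusted p = 0.053) was 0.22 without it. Polr2h, at 26.9, 23.4 and 23.2 RPKM in NC and 28.2, 27.2 and 33.2 RPKM in HE, and Polr2e, at 33.0, 29.5 and 34.3 RPKM in NC and 36.4, 37.1 and 36.7 RPKM in HE, also had groups that did not overlap (0.27 and 0.19). Polr2f overlapped, at 133, 149 and 133 RPKM in NC and 156, 139 and 215 RPKM in HE (0.28, or 0.10 without HE3). Polr2k, at 7.68, 7.12 and 8.04 RPKM in NC and 11.4, 6.81 and 8.97 RPKM in HE, overlapped too (0.22). Its annotation shares 784 bases with Spag1, a cilium assembly gene with a log2 fold change of -1.17. Polr1d and Polr1c, the assembly pair common to Pol I and Pol III, were at 0.22 and 0.09 (0.16 and 0.02 without HE3), both with overlap.

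The subunits of Pol III alone did not share one direction. Of the 10, 5 were higher (50%, against 43.8% of all tested genes) and 5 lower. At an unadjusted p under 0.05, 2 were higher (20%, against 8.68%), and 2 (20%, against 14.8%) were higher without overlap. The median log2 fold change was 0.01, or 0.05 without HE3. Polr3b, the second largest subunit, was at 6.84, 7.06 and 6.70 RPKM in NC and 8.19, 8.66 and 8.80 RPKM in HE. These were 2 tight groups without overlap (0.31 ± 0.11, unadjusted p = 0.024, adjusted p = 0.209; 0.29 without HE3). Polr3k, the small subunit for RNA cleavage and termination, was at 9.96, 9.17 and 10.5 RPKM in NC and 12.2, 11.1 and 15.2 RPKM in HE. The groups were apart here as well (0.37 ± 0.15, unadjusted p = 0.039, adjusted p = 0.229), with HE3 the highest, and the difference was 0.24 without HE3, at an unadjusted limma p of 0.059. Polr3a, the largest subunit, was at 11.2, 10.1 and 9.72 RPKM in NC and 12.2, 12.6 and 11.0 RPKM in HE (0.20 ± 0.12, unadjusted p = 0.124), where HE3 lay just within the range of NC.

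Other subunits of Pol III lay close to or below 0. Polr3c, Polr3d, Polr3f and Polr3e, peripheral subunits that act in initiation and termination, had log2 fold changes of -0.08, -0.05, 0.03 and -0.02 (-0.08, 0.02, 0.09 and 0.004 without HE3), each with a 95% interval that spans 0, and none of them was apart between groups. Crcp, a further subunit of Pol III, falls outside the symbols chosen. Its values were 22.1, 20.8 and 24.8 RPKM in NC and 28.6, 25.9 and 30.6 RPKM in HE (0.33 ± 0.12, unadjusted p = 0.025), with no overlap.

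Polr3g and Polr3gl encode alternative versions of one subunit. The form with Polr3g is known from stem cells and tumours, and that with Polr3gl from most differentiated tissues. Polr3g was at 1.96, 1.23 and 1.86 RPKM in NC and 1.93, 2.10 and 1.82 RPKM in HE, where NC2 alone was low (0.22 ± 0.21, unadjusted p = 0.333). Polr3gl was at 7.81, 10.6 and 10.4 RPKM in NC and 9.02, 7.42 and 4.40 RPKM in HE (-0.51 ± 0.27, unadjusted p = 0.102, adjusted p = 0.305). It had the lowest fold change of the members, but the groups overlapped, since NC1 lay below HE1, and without HE3 the difference was -0.22. Polr3gl was above Polr3g in each of the 6 samples, by a ratio of 3.98, 8.61 and 5.57 in NC and of 4.68, 3.53 and 2.42 in HE (exact permutation test, two-sided p = 0.2, adjusted p = 0.7 over the 7 ratios).

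**Figure D3:**
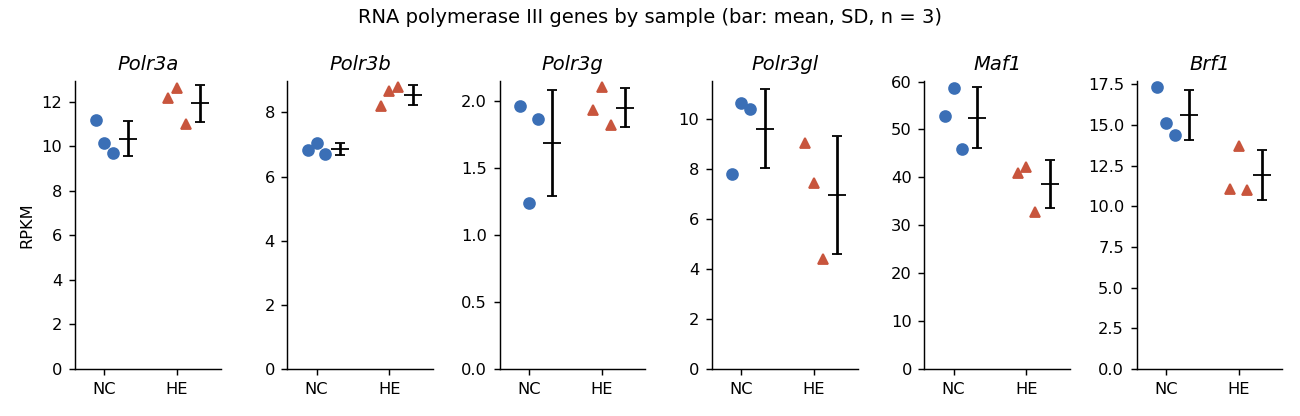
RPKM in each NC sample (circles) and HE sample (triangles) of the largest Pol III subunits Polr3a and Polr3b, the alternative subunits Polr3g and Polr3gl, the repressor Maf1 and the initiation factor Brf1, each on its own axis from 0, with mean and SD (n = 3). Polr3b is higher and Maf1 and Brf1 are lower in HE without overlap, and Polr3gl ranges from 4.40 to 9.02 RPKM in HE.

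The 3 enzymes were then set beside each other. Counting shared subunits in each, 13 of 13 subunits of Pol I, 12 of 12 of Pol II and 12 of 17 of Pol III were higher in HE. Of all tested genes 43.8% were higher. The medians of the enzymes were 0.22, 0.25 and 0.20. The Pol III subunits that were lower included Polr3gl, Polr3c, Polr3d and Polr3e. For Polr3d and Polr3e, which lay within 0.05 of 0, the direction turned under median-of-ratios scaling. With the length trend removed Polr2k (-0.0008) and Polr2d (-0.03) were lower, so that not all subunits of Pol I or Pol II were higher, and the medians of subunits of Pol II alone and Pol III alone were 0.13 and 0.11. In single samples the median deviation from the NC mean of the subunits of Pol II alone was 0.11, 0.18 and 0.36 in HE1, HE2 and HE3, of Pol I alone 0.05, 0.25 and 0.37, and of Pol III alone 0.03, 0.08 and 0.02. In NC1, NC2 and NC3 it was -0.03, -0.01 and 0.04 for Pol II, 0.15, -0.11 and -0.02 for Pol I, and 0.03, -0.03 and -0.005 for Pol III, so that HE1 lay below NC1 for Pol I. A difference between the enzymes was not tested.

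**Figure D4:**
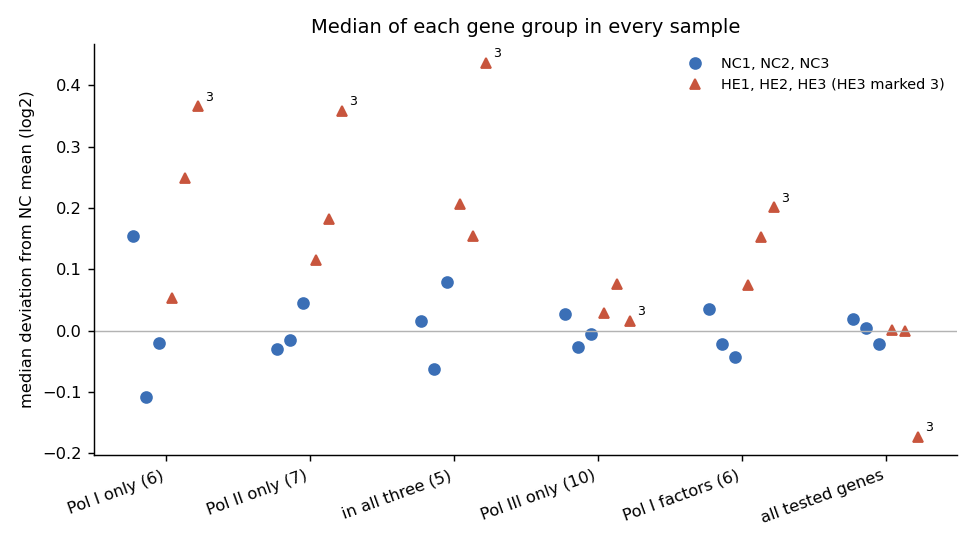
Median over each gene group of the deviation from the NC mean (log2) in the 3 NC samples (circles) and 3 HE samples (triangles, HE3 marked 3), with all tested genes at the right. HE3 is at 0.36 for subunits of Pol II alone and at 0.02 for those of Pol III alone, while its median over all tested genes is -0.17.

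Polrmt, which transcribes the mitochondrial genome, was at 8.14, 5.98 and 7.37 RPKM in NC and 5.98, 7.61 and 7.98 RPKM in HE. The groups had nearly the same mean, with a log2 fold change of 0.006 (-0.07 without HE3) and a 95% interval from -0.40 to 0.41. Polr2m, at 20.9, 18.6 and 19.9 RPKM in NC and 18.1, 20.8 and 24.6 RPKM in HE, was at 0.08, or -0.03 without HE3. Of 13 other genes of mitochondrial transcription and replication, 7 were higher (53.8%, against 43.8% of all tested genes). None had an unadjusted p under 0.05 (against 8.68% higher and 11.8% lower), and the median was 0.08. Lrpprc was at 0.36 and Tefm at 0.38, Polg2 at -0.23 and Twnk at -0.12 (0.19, 0.25, -0.14 and -0.02 without HE3).

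Genes that act with each polymerase were taken from lists. In nucleolar ribosome synthesis, downstream of Pol I, 27 of 30 genes (against 43.8% of all tested genes) were higher in HE. Of the 30, 11 (36.7%, against 8.68%) were higher at an unadjusted p under 0.05 and 16 (53.3%, against 14.8%) without overlap, and the median was 0.36, or 0.25 without HE3. Npm1, an abundant nucleolar chaperone, was at 71.5, 59.4 and 92.4 RPKM in NC and 122, 111 and 107 RPKM in HE (0.63 ± 0.17, unadjusted p = 0.0076), and Nop56, of the box C/D particles that modify ribosomal RNA, had a log2 fold change of 0.49 ± 0.15. Ttf1, which ends Pol I transcription, and Tcof1, a nucleolar cofactor of Pol I, were at -0.26 and -0.31, Ttf1 without overlap. None of the 30 had an adjusted p under 0.05 in limma.

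Of the Pol II general initiation factors, 30 of 31 were tested and 19 were higher (63.3%, against 43.8% of all tested genes). Of the 30, 4 higher ones (13.3%, against 8.68% of all tested genes) and 0 lower ones had an unadjusted p under 0.05, 13 (43.3%, against 14.8%) were higher and 2 (6.67%, against 17.9%) lower without overlap, and the median was 0.16. Ccnh, the cyclin of the TFIIH kinase, was at 0.48 and Taf2, a TFIID subunit, at 0.30, while Taf4 and Taf8, also of TFIID, were at -0.51 and -0.34, or -0.30 and -0.18 without HE3. The 22 elongation and pausing factors had a median of -0.02. At an unadjusted p under 0.05, 1 was higher (4.55%, against 8.68%) and 2 lower (9.09%, against 11.8%). Without overlap, 5 were higher (22.7%, against 14.8%) and 5 lower (22.7%, against 17.9%). Supt16, of the FACT histone chaperone, was at 0.34 and Nelfcd, of the pausing factor NELF, at 0.29, whereas Nelfb, of the same complex, was at -0.41 and Ell, an elongation factor, at -0.69. Without HE3 these were 0.20, 0.17, -0.29 and -0.39.

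The 17 Pol III factors had a median of -0.002, or -0.05 without HE3. At an unadjusted p under 0.05, 0 were higher (against 8.68% of all tested genes) and 2 lower (11.8%, equal to the 11.8% of all tested genes). Without overlap, 1 was higher (5.88%, against 14.8%) and 4 lower (23.5%, against 17.9%). Maf1, the repressor of Pol III, was at 52.8, 58.7 and 46.0 RPKM in NC and 40.9, 42.2 and 32.9 RPKM in HE. All HE values lay below all NC values (-0.44 ± 0.14, unadjusted p = 0.018, adjusted p = 0.197), and the difference was -0.33 without HE3. Brf1, a subunit of the initiation factor TFIIIB, was at 17.3, 15.1 and 14.4 RPKM in NC and 11.0, 13.7 and 11.0 RPKM in HE, also without overlap (-0.39 ± 0.14, unadjusted p = 0.024, adjusted p = 0.209). A repressor and an initiation factor of Pol III thus lay on the same side. Ssb, the La protein that binds new Pol III transcripts, was at 0.29 and Gtf3c3 at 0.15. Of 15 factors that assemble or import the polymerases 13 were higher (86.7%, against 43.8% of all tested genes). At an unadjusted p under 0.05, 1 was higher and 1 lower (6.67% each, against 8.68% and 11.8% of all tested genes). The median was 0.15, or 0.07 without HE3. Uxt was at 0.53 and Ruvbl1 at 0.39 (0.67 and 0.20 without HE3), and Rpap1 at -0.45 and Slc7a6os at -0.05 (-0.38 and 0.05).

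Gene length moved with the comparison. Over all tested genes the median log2 fold change was 0.20 for the 435 genes under 1 kb, 0.04 from 1 to 2 kb, -0.03 from 2 to 4 kb and -0.10 for the 7202 over 4 kb. In the same classes the members' medians were 0.23 (5 genes), 0.28 (7), 0.10 (16) and 0.14 (10). Much of this trend lay in HE3. Without HE3 the medians of all tested genes were 0.13, 0.05, 0.008 and -0.03, and those of the members 0.10, 0.22, 0.07 and 0.09. For genes over 4 kb the median deviation from the NC mean was -0.03, -0.02 and -0.26 in HE1, HE2 and HE3. Members were shorter than the rest, with a median length of 2503 against 4113 bases. Across genes, which are not independent replicates, log2 length and log2 fold change had a Pearson r of -0.09 over all tested genes and -0.13 over the 38 members. With the length trend removed the members' median was 0.16 and that of all tested genes 0.0085. In that fit 8 members were higher at an unadjusted p under 0.05 (against 9.71% of all tested genes), 6 of them among the 8 above. The part of length in the difference between these enzymes was not tested beyond this.

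**Figure D5:**
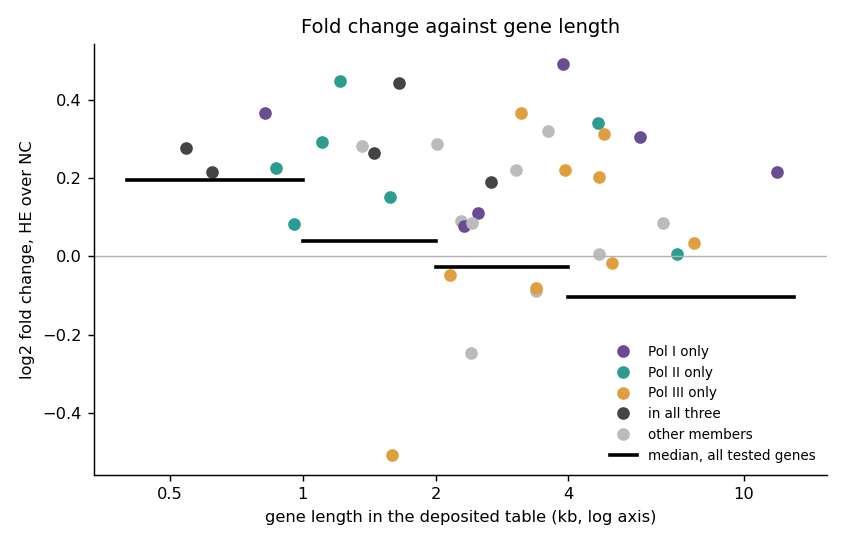
Log2 fold change (HE over NC) of 37 members against gene length in the deposited table (kb, log axis), coloured by enzyme, with black bars for the median of all tested genes in 4 length classes. The bars descend from 0.20 under 1 kb to -0.10 over 4 kb, and the members over 4 kb lie above their bar. Without HE3 these medians of all tested genes are 0.13 and -0.03.

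Proliferation genes also moved with the group. All 15 of that list (100%, against 43.8% of all tested genes) were higher in HE. Of the 15, 12 (80%, against 8.68%) were higher at an unadjusted p under 0.05 and 11 (73.3%, against 14.8%) without overlap. Their median was 0.58, or 0.37 without HE3, and their summed level was 316 to 431 RPKM in NC and 478 to 770 RPKM in HE. Mki67 was at 21.1, 15.9 and 23.2 RPKM in NC and 28.8, 31.7 and 36.7 RPKM in HE. These are RNA levels, whereas the paper's BrdU, neurosphere and passage assays found lower proliferation in HE. The paper's gene set analysis of its RNA data also placed neuroblast proliferation, neuroblast division and stem cell division among sets lower in HE. Its KEGG sets that differed included cell cycle, DNA replication and RNA polymerase, and its text gives no direction for these. The reason for the contrast of this list with the assays and the sets lower in HE was not tested. Of the progenitor list 2 of 10 were higher (sums of 2887 to 3576 RPKM in NC and 2835 to 4533 RPKM in HE), of the neuron list 4 of 10 (120 to 154 and 138 to 272 RPKM), of the astrocyte list 3 of 8 (1548 to 1927 and 1122 to 1588 RPKM) and of the oligodendrocyte lineage 2 of 8 (291 to 321 and 315 to 515 RPKM). The highest progenitor, neuron and oligodendrocyte sums were those of HE3, and a single gene reached 2383, 202 and 312 RPKM in HE. The median log2 fold changes of the progenitor, neuron, astrocyte and oligodendrocyte lists were -0.33, -0.10, -0.24 and -0.26. Without HE3 they were -0.21, -0.16, -0.23 and 0.11. Without overlap, 4 of 10 progenitor genes were lower (against 17.9% of all tested genes) and 4 of 10 neuron genes higher (against 14.8%). At an unadjusted p under 0.05, 1 progenitor gene was lower (10%, against 11.8%) and 2 neuron genes were higher (20%, against 8.68%). Endothelial genes summed to 2.47 to 3.43 RPKM in NC and 4.17 to 5.26 RPKM in HE (2 of 3 tested higher), mesenchymal genes to 63.1 to 157 and 98.3 to 210 RPKM (6 of 7), and microglial genes to 1.16 to 1.66 and 3.21 to 10.8 RPKM (4 of 5). No marker was at 0 in all samples of a group. The part of proliferation or of cell types in the polymerase values was not tested.

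Several members start beside another gene. For 10 members the 300-base promoter window overlapped that of a neighbour on the other strand. Of these partners, Yipf3, which starts 35 bases from Polr1c, had a log2 fold change of -0.31 where Polr1c had 0.09, and Dzank1, beside Polr3f, one of -0.50 where Polr3f had 0.03. Ptcd3, beside Polr1a, was at 0.32, with Polr1a at 0.22. Znrd1as, beside Znrd1, was at 0.04, with Znrd1 at 0.37.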

How the data were processed

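RNA-seq was done on 6 samples, 3 NC and 3 HE, each with cells of 2 mice. Per the paper's methods and the labels, the authors enriched RNA with oligo beads, built strand-specific libraries, filtered reads with CASAVA and aligned them with TopHat2 to mm10. The counter, annotation and use of strand are not given in the sources used here, and the methods and the labels name different sequencers. The authors deposited read counts per gene and RPKM (reads per kilobase of gene, scaled to the sample's reads on genes). The counts carry comma marks, which were removed before the counts were used. For the main test, HE was compared with NC by limma 3.58.1 (R 4.3.3) on log2(RPKM + 0.1), its prior variance following the mean. It was two-sided, with Benjamini-Hochberg adjustment over 13952 genes. These had at least 15 reads in total and, in at least 3 samples, at least the share of reads that 10 reads make up at the median depth. This main test on RPKM differs from the count test named in the study's methods, which was not run. Limma voom on the counts was an alternative, as were other scalings, filters, pseudocounts, a length correction, a replicate block and leaving out each sample. The 0.1 added to RPKM makes fold changes of low genes too small. Depth was 16078675 to 19137059 reads on genes. The fit was also run on simulated counts. The changes planted there were far larger than those of the members and no library stood apart, so that run does not bear on changes of the members' size.

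Members and gene lists were chosen with earlier results of these data known. Values in every sample were given for the largest subunits of each enzyme, Polr3g, Polr3gl, Polrmt, Rrn3, Ubtf and up to 5 members of each class with the smallest p, and of each list the 2 genes with the smallest p in each direction were named. The genes named with promoters, overlaps and neighbours, and Mki67 and Crcp, were added after their values were seen. Same-numbered NC and HE samples correlated at 0.16, 0.09 and 0.06 in their deviations from the group means, and nothing states that a number marks a shared litter, so samples were not paired. The values of 1 member are not reported here, and counts and medians over the members include it.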

Additional observations from a re-analysis of the deposited data

How the results depend on the processing

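With 3 samples per group and no member past an adjusted p of 0.05 under any setting, these data limit the members to unadjusted comparisons, and for most members a 95% interval that spans 0. Fold changes of single members kept their direction in 467 fits under the alternatives and turned in 14. The other filters and the replicate block cannot alter a member's fold change, so their fits are among the 467 by design. That count is therefore no measure of how stable the directions are. With a pseudocount of 1 the median of the Pol II general factors was 0.13. Under median-of-ratios scaling the medians were 0.068 for subunits of Pol III alone, 0.24 for Pol I factors, 0.21 for Pol II general factors and 0.042 for elongation factors, and Polr3d (0.014) and Polr3e (0.043) turned to higher. With the length trend removed they were 0.13 for subunits of Pol II alone, 0.11 for Pol III alone, 0.22 for Pol II general factors and 0.032 for elongation factors, Polr2k (-0.00083) and Polr2d (-0.027) turned to lower, and Polr3e (0.073) to higher. The cause was not tested.

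Leaving out 1 sample in turn, the members higher at an unadjusted p under 0.05 numbered 3 to 8 (against 4.39% to 9.35% of all tested genes). Those lower numbered 0 to 1. Every HE value was above every NC value for 15 to 19 members (17.8% to 20.6% of all tested genes, since fewer samples overlap less). For 1 to 3 members every HE value was below. The shares of all tested genes that were lower in these fits are not given here. Medians ranged from 0.11 (without HE3) to 0.23 over all members, from 0.13 (without HE3) to 0.36 for subunits of Pol I alone, from 0.10 (without HE3) to 0.30 for Pol II alone, from 0.013 to 0.053 for Pol III alone, from 0.19 to 0.40 (without HE2) for subunits of all 3 enzymes, from 0.11 to 0.20 for Pol II general factors, from -0.076 to 0.045 for elongation factors, from -0.098 to -0.0094 for Pol III factors, from 0.072 (without HE3) to 0.20 for assembly factors and from -0.014 to 0.088 for mitochondrial factors. Fold changes that turned ranged from -0.13 to 0.090 for Polr2a, -0.028 to 0.19 for Polr2m, -0.10 to 0.020 for Polr3d, -0.050 to 0.046 for Polr3e and -0.12 to 0.13 for Polrmt. Without NC3, 105 genes of the whole table had an adjusted p under 0.05, 0 of them members. With a replicate block 8 members were higher at an unadjusted p under 0.05 (against 8.75% of all tested genes), 7 of them among the 8 without it. The smallest adjusted limma p among members was then 0.131. Each sample correlated best with its own number, which is a hint from the data and not from the design.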
